A study of Mus musculus with 6 samples.

Results

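The 8 genes described here encode subunits of the NADPH oxidases, Cybb, Cyba, Ncf1, Ncf4, Nox1, Nox4, Rac1 and Rac2, and were found by their symbols among the 18182 genes of the expression tables. They were selected on their counts and FPKM values in these same libraries, so their differences between the groups are given as a description, with no test. Lewis lung carcinoma (LLC) is a mouse lung cancer line, used here with a red fluorescent protein (LLC-RFP). The cells were injected under the skin of wild type C57BL/6 mice either by themselves (LLC alone, 3 libraries) or together with bone marrow-derived mesenchymal stem cells (LLC with BMSCs, 3 libraries), and red fluorescent cells were sorted by flow cytometry from the primary cancer sites before RNA sequencing. The hosts were immunocompetent, and the label of the co-injected group names mesenchymal stem cells beside the carcinoma cells as the source of its RNA. The question put to the subunits was whether those that phagocytes use were higher together in LLC with BMSCs.

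NADPH oxidases move electrons from NADPH across a membrane to oxygen and make superoxide. The phagocyte enzyme has a membrane core of gp91phox (Cybb) and p22phox (Cyba), which becomes active when p47phox (Ncf1), p40phox (Ncf4), other cytosolic proteins and a Rac GTPase join it from the cytosol. NOX1 and NOX4 are the catalytic subunits of related enzymes in epithelial, vascular and connective tissue cells, and they share p22phox.

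The promoters of Cybb, Ncf1 and Cyba are shown because these genes cover the range of the results: Cybb and Ncf1 were at or near 0 in LLC alone and higher with BMSCs, and the levels of Cyba, the partner of Cybb in the membrane, overlapped between the groups. Each runs from 250 bases before to 50 bases after the transcription start in RefSeq (GRCm38.p6), is printed 5′ to 3′ on the strand of the gene, and lies on the minus strand, Cybb at chrX:9469275-9469574, Ncf1 at chr5:134229576-134229875 and Cyba at chr8:122432891-122433190. Capitals mark matches, on either strand, to 4 motifs: an interferon-stimulated response element, a STAT site (TTCNNNGAA), an Ets and PU.1 site (AGGAAGT) and an AP-1 site (TGANTCA).
Cybb: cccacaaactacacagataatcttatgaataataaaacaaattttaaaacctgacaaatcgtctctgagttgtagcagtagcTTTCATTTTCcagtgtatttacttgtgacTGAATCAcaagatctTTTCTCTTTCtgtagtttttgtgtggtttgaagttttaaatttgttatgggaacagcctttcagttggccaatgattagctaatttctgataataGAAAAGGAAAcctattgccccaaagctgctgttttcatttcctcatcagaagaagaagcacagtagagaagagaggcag
Ncf1: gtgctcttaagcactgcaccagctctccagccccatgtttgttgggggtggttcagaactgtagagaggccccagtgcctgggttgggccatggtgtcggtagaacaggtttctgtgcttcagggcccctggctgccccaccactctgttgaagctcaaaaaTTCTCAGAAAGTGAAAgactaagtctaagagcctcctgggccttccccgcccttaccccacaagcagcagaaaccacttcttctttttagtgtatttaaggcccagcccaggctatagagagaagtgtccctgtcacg
Cyba: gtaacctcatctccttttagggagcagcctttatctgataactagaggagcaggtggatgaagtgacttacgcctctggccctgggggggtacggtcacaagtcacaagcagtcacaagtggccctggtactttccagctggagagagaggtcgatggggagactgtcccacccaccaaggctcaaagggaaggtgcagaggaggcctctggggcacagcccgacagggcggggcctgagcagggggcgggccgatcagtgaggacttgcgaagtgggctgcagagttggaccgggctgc

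The Cybb promoter matched the interferon-stimulated response element at 168, 124 and 29 bases before the start and the AP-1 letters at 139 bases before it. In the Ncf1 promoter, the interferon-stimulated response element letters began 82 bases and the STAT letters 88 bases before the start, and the matches overlapped. The Cyba window held none of the letters. Of the other members, promoters of Nox1 and Nox4 were in the table, so that 5 of the 8 members were searched. Nox1 had no match, and Nox4 had overlapping STAT and Ets letters 222 and 218 bases before the start. Among 32851 mouse promoters of the same length, 3.44% held the interferon-stimulated response element letters, 8.3% the STAT letters, 9.35% the Ets letters and 7.81% the AP-1 letters. A match is a description of the sequence only, and no match says only that these letters are not in the window.

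The libraries held between 33476347 and 46189113 estimated counts. Replicate 3 of LLC alone stood apart from the rest: its median chi-square per gene against the other libraries of its group was 12.6 and 13.3 times the value that sampling gives, and the shortest of 5 length classes of genes was higher in it by a median of 0.32 on the log2 scale than the mean of all libraries. Replicates 1 and 2 of LLC alone (1.95 times) and replicates 2 and 3 of LLC with BMSCs (1.69 times) were the closest pairs, but they differed by more than sampling noise and were counted separately. Of the epithelial markers, Krt8 was high in both groups (means of 95.3 FPKM without and 110 FPKM with BMSCs) and Krt18 was low (0.0833 and 0.653 FPKM), whereas Krt19, Epcam, Cdh1 and the lung genes Nkx2-1, Sftpc and Scgb1a1 were at or near 0.

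Cybb, the electron-carrying subunit of the phagocyte enzyme, was not detected in LLC alone and was measured in every library of LLC with BMSCs. It had 0 counts in each of the 3 LLC alone libraries, and 274, 251 and 268 counts in LLC with BMSCs replicates 1 to 3. The level was 1.31, 1.19 and 1.3 FPKM, a mean of 1.27 ± 0.0666 FPKM (SD, n = 3). FPKM divides the fragments of a gene by its transcript length and by the total of the library, and allows levels of different genes to be compared. Against a floor of 3 counts in each LLC alone library, Cybb was at least 80.7-fold higher in LLC with BMSCs (256 ± 11.5 normalized counts, SD, n = 3). Of the 18182 genes, 18 (0.099%) likewise had no counts in LLC alone while averaging 50 or more normalized counts in LLC with BMSCs. In sorted bulk RNA, fewer cells of a type and less RNA per cell cannot be told apart. The gene (NCBI 13058) lies at chrX:9435252-9487771 on the minus strand of GRCm38, and no exon of another gene overlaps its exons. Its counts were divided between the RefSeq transcript NM_007807 and a transcript assembled by the authors' pipeline, which took 0%, 30.7% and 12.5% of the counts in replicates 1 to 3 of LLC with BMSCs.

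Nox1 and Nox4, the catalytic subunits of the non-phagocyte enzymes, were low in both groups. Nox1 (NCBI 237038, chrX:134086421-134221956, minus strand) had 10.93, 11.76 and 20.31 estimated counts in LLC alone and 31.67, 18.69 and 28.97 in LLC with BMSCs, with levels of 0.137 ± 0.0451 and 0.24 ± 0.0608 FPKM (SD, n = 3). The groups overlapped, since replicate 3 of LLC alone (0.18 FPKM) was above replicate 2 of LLC with BMSCs (0.17 FPKM). The log2 fold change was 0.79 (SE 0.3). Exons of Nox1 overlap those of Cstf2 on the opposite strand, and in all 6 libraries the counts of Nox1 and Cstf2 (4983.24 to 7877.33 counts) added up to a whole number within 0.011, as when reads are divided between a pair of genes. The Nox1 value is therefore uncertain.

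Nox4 (NCBI 50490, chr7:87246096-87398710, plus strand) had 4, 3 and 4 counts in LLC alone and 9, 10 and 7 counts in LLC with BMSCs. The groups did not overlap, at 0.02 FPKM in each LLC alone library and 0.05, 0.06 and 0.04 FPKM in LLC with BMSCs. The ratio of normalized counts was 2.21, with a 95% counting interval of 1.06 to 4.96, and the gene was below the filter on low counts. The interval covers counting error only, not the spread between replicates. In replicate 3 of LLC with BMSCs the counts went to the transcript NM_015760 and in the other 5 libraries to NM_001285835, a choice that rests on at most 10 counts per library.

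Cyba, which holds the catalytic subunits in the membrane, was abundant in both groups, at overlapping levels. Its counts were 1551, 1136 and 1972 in LLC alone and 1522, 1460 and 1445 in LLC with BMSCs. The level was 49.52, 50.11 and 62.91 FPKM in the LLC alone libraries, and 49.9, 48.75 and 48.59 FPKM in LLC with BMSCs. Replicates 1 and 2 of LLC alone lay at the level of the libraries with BMSCs, and replicate 3, the library that stood apart, lay above all others. The log2 fold change was -0.16 (SE 0.099), it was -0.03 (SE 0.044) without replicate 3 of LLC alone, and it turned to 0.20 (SE 0.057) when the trend of each library over gene length was removed. The level of Cybb in LLC with BMSCs was 2.63%, 2.44% and 2.68% of that of Cyba in the same library. The main transcript of Cyba, NM_007806, took 81.4% to 82.9% of its counts in LLC alone and 85.0% to 88.1% in LLC with BMSCs. Cyba (NCBI 13057) lies at chr8:122424776-122432930 on the minus strand.

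Ncf1 and Ncf4, the cytosolic organizer p47phox and its partner p40phox, were higher in LLC with BMSCs in every library. Ncf1 (NCBI 17969, chr5:134220053-134229625, minus strand) had 3, 2 and 2 counts in LLC alone and 108, 105 and 100 counts in LLC with BMSCs. Its level was 0.02 FPKM in every LLC alone library and 0.91, 0.9 and 0.86 FPKM in LLC with BMSCs. No library of the groups overlapped, and the SD with BMSCs was 0.0265 FPKM (n = 3). The ratio of normalized counts was 41.9 with a 95% counting interval of 20.1 to 105, wide because it rests on 2 or 3 counts per LLC alone library. Exons of Ncf1 overlap those of Gtf2ird2 on the opposite strand, which had 207 to 304 counts in LLC alone and 183 to 207 counts in LLC with BMSCs.

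Ncf4 (NCBI 17972, chr15:78244801-78262580, plus strand) had 6, 4 and 6 counts in LLC alone and 49, 39 and 44 counts in LLC with BMSCs. Its level was 0.09 FPKM in each LLC alone library and 0.79, 0.64 and 0.72 FPKM in LLC with BMSCs, so the groups did not overlap. The log2 fold change was 2.92 (SE 0.23), a ratio of 7.72 with a 95% counting interval of 4.58 to 13.9.

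The Rac GTPases, of which Rac2 is the form of blood cells and Rac1 is present in most cells, differed from each other. Rac2 (NCBI 19354, chr15:78559167-78572783, minus strand) had 8.02, 1.03 and 2.92 estimated counts in LLC alone and 134.12, 111.22 and 122.74 in LLC with BMSCs, that is 0.06, 0.01 and 0.02 FPKM against 1.01, 0.85 and 0.94 FPKM. The groups did not overlap, and replicate 1 of LLC alone was the highest of its group. The log2 fold change was 4.81 (SE 0.33), or 5.69 without replicate 1 of LLC alone, and the ratio was 28.7 with a 95% counting interval of 16.2 to 56.1. Its counts were not whole in 6 of 6 libraries, as in estimated counts where reads are divided among genes.

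Rac1 (NCBI 19353, chr5:143503634-143528036, minus strand) was the most abundant member. It had 215.92, 211.65 and 231.91 FPKM in the LLC alone libraries and 203.71, 212.83 and 208.02 FPKM in LLC with BMSCs. The groups overlapped, and the log2 fold change was -0.10 (SE 0.06), with values between -0.13 and -0.03 under the 17 alternatives. Rac2 in LLC with BMSCs amounted to 0.496%, 0.399% and 0.452% of the level of Rac1. Exons of Rac1 overlap those of Daglb on the opposite strand, which had 477 to 736 counts against 15687 or more for Rac1.

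**Figure D1:**
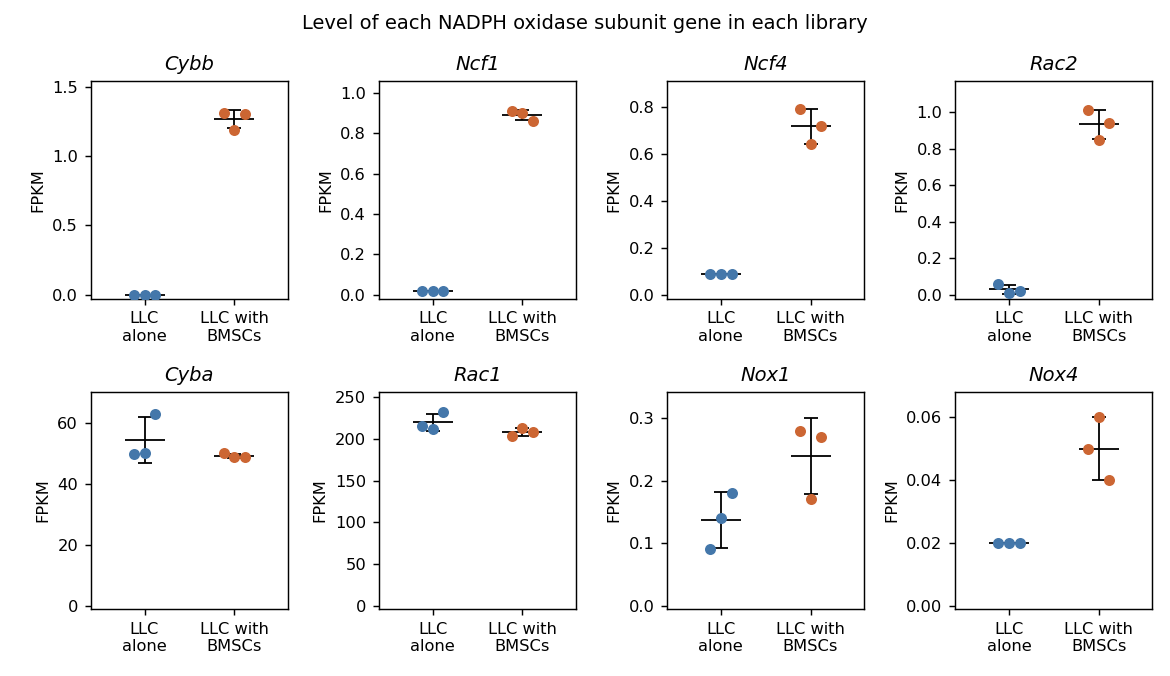
Level of each member in FPKM (linear axes from 0, a scale of its own for each gene) in the 3 libraries of LLC alone (blue) and of LLC with BMSCs (orange), with the mean as a horizontal line and the SD as bars. Cybb, Ncf1, Ncf4 and Rac2 are near 0 in LLC alone and between 0.64 and 1.31 FPKM with BMSCs, while the groups overlap for Cyba, Rac1 and Nox1.

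In LLC alone the order of levels was Rac1 (220 ± 10.7 FPKM, SD, n = 3), Cyba (54.2 ± 7.57), Nox1, Ncf4, Rac2, Nox4 and Ncf1, with Cybb at 0. Nox1 and Ncf4 were not separated by the ranges of their libraries, nor were Rac2, Nox4 and Ncf1. In LLC with BMSCs Rac1 (208 ± 4.56 FPKM) and Cyba (49.1 ± 0.715) kept their places, and Cybb (1.27 ± 0.0666), Rac2 (0.933 ± 0.0802), Ncf1 (0.89 ± 0.0265) and Ncf4 (0.717 ± 0.0751) followed, above Nox1 and Nox4 (0.05 ± 0.01). Of the neighbours in that order, only Rac2 and Ncf1 had overlapping ranges.

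The levels of the cytosolic phagocyte subunits were set against that of Cybb in each library of LLC with BMSCs. The FPKM of Ncf1 was 0.695, 0.756 and 0.662 times that of Cybb in replicates 1 to 3. For Rac2 the ratio was 0.771, 0.714 and 0.723, and for Ncf4 it was 0.603, 0.538 and 0.554. No such ratio exists in LLC alone, where Cybb was at 0. The ratio of Cybb to Cyba, whose levels overlapped between the groups, was about as steady (0.0263, 0.0244 and 0.0268). The libraries of LLC with BMSCs were alike across all tested genes (Spearman correlations of 0.9965 to 0.9988). Nothing particular to these subunits is therefore read from the steadiness of the ratios.

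**Figure D2:**
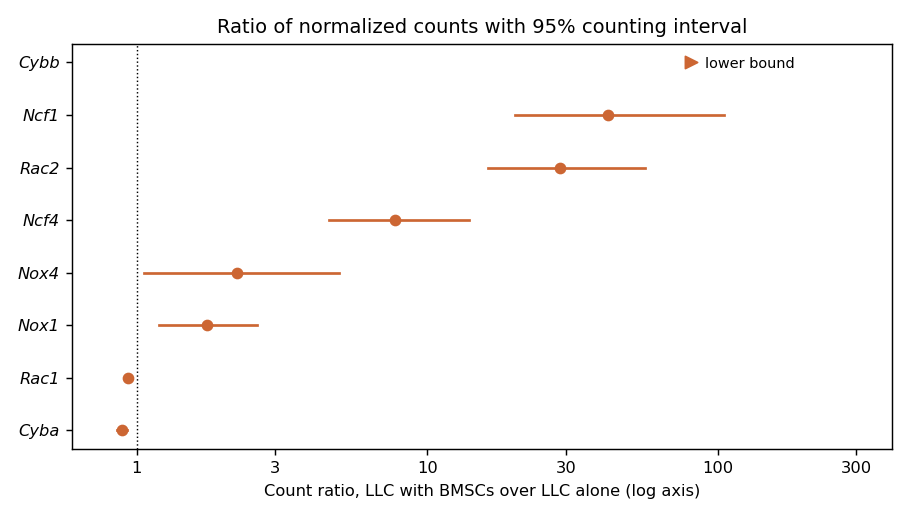
Ratio of normalized counts of LLC with BMSCs over LLC alone (log axis) for the 8 members, with 95% exact intervals that cover counting error and not the spread between replicates; the arrowhead marks the lower bound of Cybb. Ncf1, Rac2 and Ncf4 lie between 7.72 and 41.9, Nox4 and Nox1 near 2, and Rac1 and Cyba at 0.93 and 0.89.

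Across all genes, edgeR's quasi-likelihood test with Benjamini-Hochberg adjustment called 62.9% of the 13353 tested genes at an adjusted p under 0.05, 31.5% higher and 31.3% lower in LLC with BMSCs. Of the members, 7 of 8 were tested, 4 were called higher (Cybb, Ncf1, Ncf4 and Rac2) and 0 lower. Because those 4 passed the filter on low counts only through the group in which they were high, and because the members were chosen with this comparison known, nothing is read from their count. Levels of 5 of the 8 members (Nox4, which was not tested, among them) did not overlap between the groups and were higher with BMSCs, as were those of 29.7% of all genes in the tables and 37.0% of the tested genes. In either direction the groups did not overlap for 56.6% of all genes and 70.6% of the tested genes. Without replicate 3 of LLC alone, the library that stood apart, the log2 fold change was 5.16 for Ncf1, 2.95 for Ncf4, 4.58 for Rac2, 1.03 for Nox1 and -0.05 for Rac1, and Cybb had 0 counts in the libraries that remained. Cybb, Ncf1, Ncf4 and Rac2 thus were higher together, whereas the levels of Cyba and Rac1, which other enzymes and cells also use, overlapped between the groups. A rise of Cyba or Rac1 by the level that Cybb reached (1.27 FPKM) could not be seen here. It would lie within their SD in LLC alone (7.57 and 10.7 FPKM). Whether Cyba and Rac1 rose with the others by such an amount is therefore not decided.

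Phagocyte marker genes were counted in the same libraries. Their summed level was 29.4 to 33.9 CPM (counts scaled to a common library total) in LLC alone and 89.2 to 91.6 CPM in LLC with BMSCs, over 36 of 37 genes that the tables list. Of 26 tested, 23 rose and 2 fell, Cd68 and Cx3cr1 (the latter named after its values were seen). However, 17 of the 26 passed the filter on low counts only through LLC with BMSCs, where they were high, so nothing is read from that count. Of the 8 that passed it in both groups 6 rose and 1 fell, beside 31.5% higher and 31.3% lower over all tested genes. The part of these cells in the oxidase values was not tested.

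Among the pan-leukocyte genes, 6 of 6 tested rose, but 3 of the 6 passed the filter only through LLC with BMSCs, so nothing is read from that count. Of the 3 that passed it in both groups 3 rose, beside 31.5% higher and 31.3% lower over all tested genes. The sum of the list went from 3.35 to 3.63 CPM up to 24.3 to 25.2 CPM. Ptprc, the leukocyte antigen CD45, had 3, 8 and 8 counts in LLC alone and 96, 112 and 103 counts in LLC with BMSCs. Lcp1 had 12, 6 and 8 counts against 391, 368 and 380, a log2 fold change of 5.34 (SE 0.15). Like Ptprc, Lcp1 passed the filter only through LLC with BMSCs, so its value is a description. Itgb2 rose by 1.54 (SE 0.11) and Coro1a by 2.08 (SE 0.2), with adjusted p of 1.41e-05 and 8.12e-05. Cybb was 0.553, 0.529 and 0.556 times the level of Lcp1 in the 3 libraries of LLC with BMSCs.

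Of the 18 macrophage and monocyte genes 12 were tested, and those not tested had few counts in both groups. Of the 12 tested 9 rose, but 7 of the 12 passed the filter only through LLC with BMSCs, so nothing is read from that count. Of the 4 that passed it in both groups 2 rose and 1 fell, beside 31.5% higher and 31.3% lower over all tested genes. The sum was 24.9 to 29.9 CPM in LLC alone and 40.5 to 41.6 CPM in LLC with BMSCs. Adgre1, the macrophage antigen F4/80, had 0 counts in every LLC alone library and 60, 79 and 63 counts with BMSCs, at least 20.6-fold higher. Csf1r, the receptor for macrophage colony-stimulating factor, had 18, 13 and 22 counts against 101, 80 and 84. Cd14 (9.49 and 10.1 FPKM) was present in both groups at overlapping levels. Lyz2 rose from 3.08 to 4.71 FPKM, a log2 fold change of 0.58 (SE 0.14, adjusted p = 0.00901). Cd68 fell from 5.55 to 3.03 FPKM, a log2 fold change of -0.89 (SE 0.12, adjusted p = 0.000501).

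The neutrophil genes went from 0.479 to 0.81 CPM up to 23.4 to 26.4 CPM. Of these, 8 of 8 tested rose, but 7 of the 8 passed the filter only through LLC with BMSCs, so nothing is read from that count. S100a9, a calcium-binding protein abundant in neutrophils, had 0, 1 and 0 counts in LLC alone and 434, 421 and 522 counts with BMSCs. S100a8, its partner, had 0, 2 and 1 counts against 254, 300 and 302. Ngp, a granule protein, had means of 0.01 and 2.6 FPKM, whereas Ly6g, the surface antigen used to define mouse neutrophils, had 4, 3 and 1 counts against 3, 1 and 1 and was not tested.

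Marker lists of other cell types were counted in the same way, and some of their genes likewise passed the filter only through LLC with BMSCs. Over all tested genes 31.5% were higher and 31.3% lower, and differences of the lists from these shares were not tested. BMSC and fibroblast genes rose in 11 of 11 tested, with a sum of 494 to 574 CPM in LLC alone and 1020 to 1060 CPM with BMSCs. Of these, the collagen gene Col3a1 rose by a log2 fold change of 1.26 (SE 0.076, adjusted p = 7.56e-06), while Prrx1 had means of 29.2 and 46.0 FPKM and Eng 28.7 and 34.8 FPKM. Erythroid and platelet genes rose in 5 of 6 tested (5.01 to 6.71 against 9.65 to 11.0 CPM), smooth muscle and pericyte genes in 2 of 5 (6.95 to 8.03 against 7.44 to 9.41 CPM), dendritic cell genes in 2 of 4 (10.1 to 10.8 against 12.9 to 13.6 CPM) and epithelial and lung genes in 2 of 2 (158 to 179 against 188 to 196 CPM), while 1 gene fell in each of the first 3. The call of Krt8, 1 of the 2 epithelial genes (log2 fold change 0.19), was lost under 8 of 17 alternatives. Endothelial genes rose in 0 of 3 tested and fell in 1 (3.01 to 3.93 against 2.43 to 3.18 CPM). Lymphocyte genes had no member that passed the filter, at 0.3 to 0.373 CPM in LLC alone and 0.247 to 0.358 CPM with BMSCs.

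**Figure D3:**
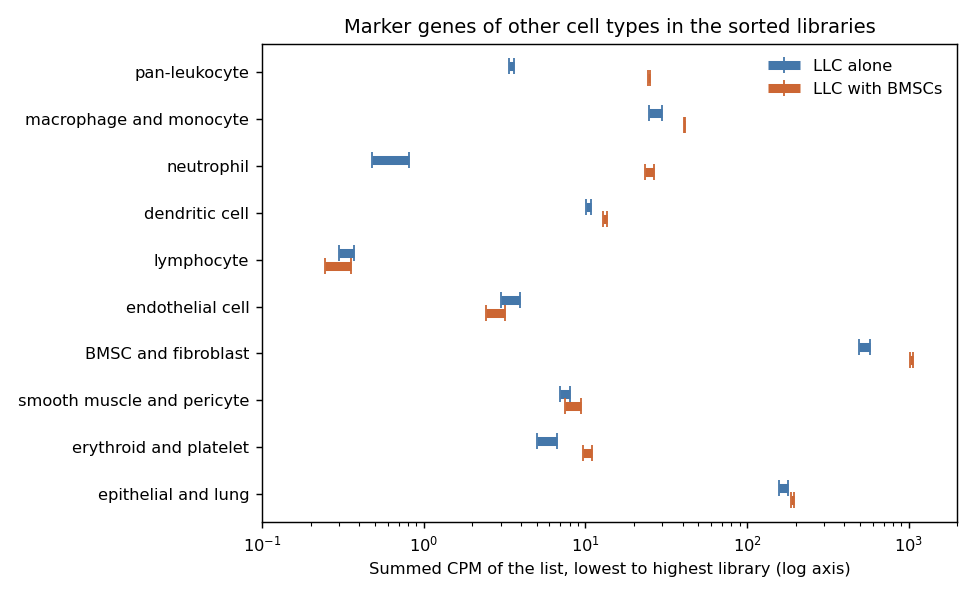
Summed CPM of each marker list (log axis), as a bar from the lowest to the highest of the 3 libraries of LLC alone (blue) and of LLC with BMSCs (orange). The neutrophil sum went from below 1 CPM to 23.4 CPM or more, the pan-leukocyte sum from 3.63 CPM or less to 24.3 CPM or more, and lymphocyte sums overlapped.

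Over 53 other genes of the oxidase pathway, of which 51 were in the tables and 45 passed the filter, 18 rose and 15 fell, which is near the 31.5% and 31.3% of all tested genes, so nothing particular to the pathway is read from it. The median log2 fold change was 0.16, beside 0.01 over all tested genes. Of the 42 pathway genes that passed the filter in both groups, 15 rose and 15 fell. By role, 5 of 6 tested subunits and assembly factors rose and 1 fell, with a median of 0.51. Only 5 of these 6 passed the filter in both groups, of which 4 rose and 1 fell, so nothing is read from that count.

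Of the subunits and assembly factors, Sh3pxd2b, an adaptor related to p47phox, rose by a log2 fold change of 1.95 (SE 0.15, adjusted p = 2.35e-05), from a mean of 7.19 FPKM to 28.1 FPKM. Noxo1, the organizer of the NOX1 enzyme, rose by 0.55 (SE 0.14, adjusted p = 0.011), and Cybc1 (listed as BC017643), a chaperone of gp91phox and p22phox, by 0.27 (SE 0.065, adjusted p = 0.00802), a call lost when close replicate pairs were summed (adjusted p = 0.0975). The counts of Cybc1 were not whole in 6 libraries, as where reads are divided among genes. Noxa1, the activator of NOX1, had 1 to 3 counts in each library, the thyroid-type oxidase Duox1 had at most 4 and Duox2 at most 1, and none of these was tested. Nox3 was not among the 18182 genes listed and so has no value. Rac3, the other Rac GTPase of the list, had 19.47, 0 and 12.31 estimated counts in LLC alone and 0 in each library with BMSCs, and is named after its values were seen.

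Regulators of Rac moved in both directions: 8 of 14 tested rose and 4 fell, with a median log2 fold change of 0.38. Vav1 and Dock2 are among the 8, but passed the filter only through LLC with BMSCs, where they were high. Without them 6 of 12 rose and 4 fell, beside 31.5% and 31.3% of all tested genes. Vav1, an exchange factor of blood cells, had 0, 0 and 1 counts in LLC alone and 47.99, 51 and 61 counts with BMSCs, a ratio of 150 with a 95% counting interval of 26.5 to 5950. Dock2, another exchange factor of blood cells, had 3, 0 and 0 counts against 25, 22 and 21, a ratio of 21.2 with an interval of 6.96 to 105. Elmo1, which works with Dock proteins, went the other way, with 121, 105 and 121 counts in LLC alone and 16, 20 and 10 counts with BMSCs, a log2 fold change of -3.01 (SE 0.22, adjusted p = 2.13e-05).

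Of 10 kinases, phospholipases and the proton channel, 2 rose and 3 fell, with a median log2 fold change of 0.14. Over all tested genes 31.5% were higher and 31.3% lower, so nothing particular to this list is read from the counts. Hvcn1, the proton channel that balances the charge moved by the phagocyte oxidase, fell by 0.96 on the log2 scale (SE 0.12, adjusted p = 0.000374), from 1.99 to 1.04 FPKM. The counts of Hvcn1 were not whole in 6 libraries, as where reads are divided among genes. Prdx6, a peroxiredoxin with phospholipase activity, fell by 0.7 (SE 0.075, adjusted p = 0.000143). Prkcb, a protein kinase C that phosphorylates p47phox, rose by 0.59 (SE 0.16, adjusted p = 0.0149) at 0.12 and 0.16 FPKM, and its call was lost under 5 of 15 alternatives.

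Of 10 enzymes that remove superoxide and peroxide, 2 rose and 5 fell, with a median log2 fold change of -0.24, beside 31.5% higher and 31.3% lower over all tested genes, and the difference from these shares was not tested. Sod2, the mitochondrial superoxide dismutase, had 31.15, 31.48 and 34.9 FPKM in the LLC alone libraries and 113.22, 125.6 and 123.46 FPKM with BMSCs. The groups did not overlap, and Sod2 rose by 1.93 (SE 0.077, adjusted p = 1.04e-06). Prdx5, a peroxiredoxin, rose by 1.02 (SE 0.096, adjusted p = 6.97e-05), from 99.5 to 206 FPKM. Sod1, the cytosolic superoxide dismutase, fell by 0.6 (SE 0.09, adjusted p = 0.000747), from 579 to 387 FPKM, and by 0.23 with the trend over gene length removed.

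Of 5 enzymes that supply NADPH, 1 rose and 2 fell, with a median log2 fold change of -0.13. With 31.5% higher and 31.3% lower over all tested genes, nothing particular to this list is read from the counts. Me1, malic enzyme, fell by 1.14 (SE 0.052, adjusted p = 2.09e-06), from 87.7 to 40.3 FPKM. Pgd rose by 0.55 (SE 0.054, adjusted p = 8.26e-05) and Pgls fell by 0.52 (SE 0.12, adjusted p = 0.00618), or by 0.19 with the trend over gene length removed. Both act in the pentose phosphate pathway.

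**Figure D4:**
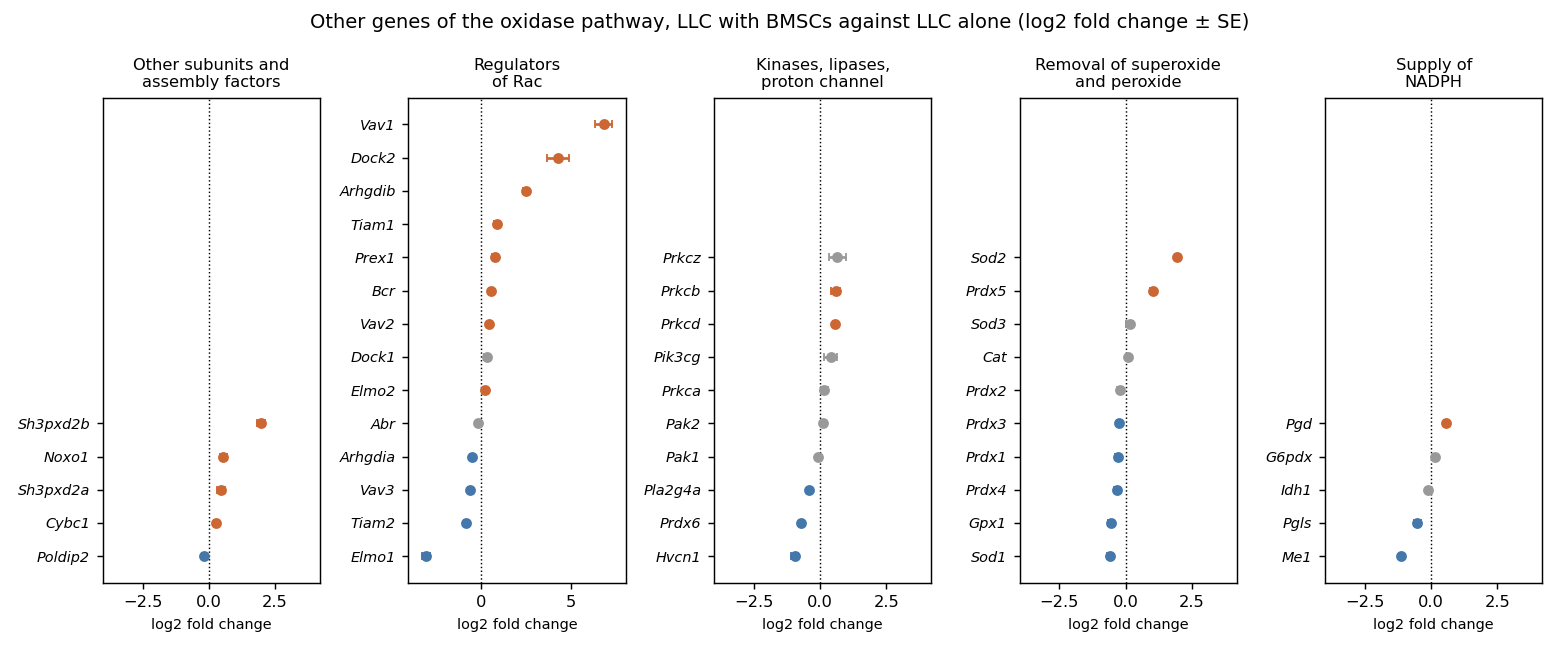
Log2 fold change ± SE of LLC with BMSCs against LLC alone for 44 of the 45 tested genes of the 5 pathway lists, in panels by role (the panel for regulators of Rac has a wider axis), with genes called higher in orange, called lower in blue and not called in grey. Sh3pxd2b (1.95) and Sod2 (1.93) lie to the right, and Elmo1 (-3.01) and Me1 (-1.14) to the left.

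The genes with a pattern of levels most like that of Cybb over the 6 libraries, by the root mean square difference of log2(FPKM + 1), were Plk2 (0.02), Itgam (0.0501), Sirpa (0.0567) and Fcgr2b (0.058). Itgam, the integrin chain CD11b of myeloid cells, had 1.17, 1.14 and 1.19 FPKM in LLC with BMSCs, so that Cybb was 1.12, 1.04 and 1.09 times its level. For Ncf1 they were Csf2rb (0.0251), Arg1 (0.0438), H2-L (0.0443) and Cd24a (0.0456). Each of these 8 genes had at most 5 counts in any LLC alone library. That follows from the way they were chosen, by closeness to genes at or near 0 in LLC alone, so nothing is read from it.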

How the data were processed

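Red fluorescent LLC cells were sorted from tumours of LLC alone (3 libraries) and of LLC with BMSCs (3 libraries), and their RNA was isolated with TRIzol. The study's methods state oligo-dT enrichment and BGISEQ-500 paired-end sequencing, whereas the labels name Illumina protocols. The submitters' processing notes name HISAT, StringTie, Cufflinks and GATK and the build mm8, and the use of strand in counting is not given in the sources used here. For every gene and transcript the authors deposited estimated counts, which need not be whole, since reads matching several genes are divided, together with gene lengths and FPKM values. Positions and promoters come from GRCm38 and were matched by gene, and no coordinate of the authors' build was used.

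Groups and replicate numbers were taken from the labels. Nothing says that the libraries came from separate animals, so p-values measure only the spread between libraries. With 3 against 3, an exact permutation test cannot give a two-sided p below 0.1.

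Estimated counts were rounded and tested with edgeR 4.0.16 in R 4.3.3 (TMM, its default filter, quasi-likelihood test, Benjamini-Hochberg adjustment over 13353 genes, threshold 0.05). The SE of a log2 fold change is its absolute value over the root of its F statistic. Normalized counts were scaled to the mean effective library size of 43039587. A gene at 0 throughout a group has a bound against 3 counts per library, and genes with few counts have a ratio with an exact conditional 95% interval, also where a bound had been planned (Ncf1). Scripts were tested on simulated data. Alternatives were DESeq2 1.42.0, limma 3.58.1 on log2 FPKM, other scalings and filters, a replicate block, removal of the trend over gene length, summed close pairs, a fold threshold and leaving out each library.

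The members and gene lists were chosen with earlier results of these data known. The text names all members, fixed pathway genes, at most 3 called genes per pathway list by fold change, at most 3 genes per marker list by level with Ptprc, Adgre1, Csf1r and Ly6g, and the 4 genes nearest in level to each of 2 members. Outside this rule, Epcam, Cdh1, Nkx2-1, Sftpc and Scgb1a1 are named to complete the epithelial and lung list. Genes whose exons overlap those of a member are named for their position. Any other gene outside the rule is marked as named after its values were seen. The values of 1 pathway gene are not reported here, and it is counted in its list.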

Additional observations from a re-analysis of the deposited data

How the results depend on the processing

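The 4 members called higher became 1 of 3 tested with at least 10 counts in every library (Nox1) and 1 of 3 tested with limma on log2(FPKM + 1) or log2(FPKM + 0.1) and at least 1 FPKM in 3 libraries (Cybb). The first filter removes genes near 0 in LLC alone, and the filter on FPKM removes Ncf1, Ncf4 and Rac2, which do not reach 1 FPKM in 3 libraries. Under other alternatives the number was 4 to 6 (6, with Nox1 and Cyba, when the trend over gene length was removed), and 4 to 5 when each library was left out. The same 3 filters took the phagocyte markers called higher from 23 to 6, 10 and 10 and those called lower from 2 to 1, 1 and 1. Leaving out each library gave 22 to 25 higher and 2 lower. A fold threshold of 1 on the log2 scale left 7 pathway genes higher (from 18), 2 lower (from 15) and 1 phagocyte marker lower. The pathway counts were 16 to 20 higher and 12 to 16 lower when each library was left out. Removing the trend over gene length reversed Cyba (0.20). Cd14, not called, reversed to -0.0012 with close pairs summed, and Pecam1, not called, to -0.0017 without replicate 1 of LLC alone (-0.0017 to 0.3 when each library was left out). Of 814 values of 51 genes under the alternatives, 786 kept direction and side of the threshold, 19 lost and 6 gained a call. Without replicate 1 of LLC alone the fitted log2 fold change of Dock2 was 7.44, and without replicate 3 that of Vav1 was 8.68. In both cases the LLC alone libraries that remained had 0 counts, so these fits are not measured folds. Replicate numbers did not pair the libraries (correlations of deviations 0.0762, -0.106 and 0.0572 for equal numbers). With the replicate block 4 members were called higher, and 19 pathway genes were called higher and 14 lower. At these depths 3 counts are at most 0.0896 CPM.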
